A study of Mus musculus with 2 samples.

Results

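The subject is a set of 41 genes for RNA-binding splicing regulators, of 43346 genes in the gene tables of the limb of the mouse embryo. The members were chosen by name as families of tissue-restricted regulators and their broadly expressed relatives, and each has a row in both libraries. By what is generally known of where they act, 14 were put in a neural class, 3 in a muscle class and 2 in an epithelial class, and 22 were counted as broad. The single group is the limb at embryonic day 14.5 in the C57BL/6J strain, with no allele, transgene or treatment named in the labels. Each of the 2 biological replicates is a library of polyadenylated RNA above 200 nucleotides from pooled littermates of both sexes, and there is no second condition to compare. The labels give both pools the same donor identifier and do not say whether they came from separate litters or which limbs were taken. Every p-value therefore rests only on the spread between these 2 samples, part of which may be technical. In the limma fits below, the spread of each gene is also drawn toward that of other genes of similar level.

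Splicing regulators bind short motifs in a pre-mRNA and, by where they bind, help the spliceosome use an exon or pass over it. SR proteins mostly favour inclusion through motifs inside exons, whereas Ptbp1 mostly represses exons flanked by pyrimidine-rich tracts. In neurons, muscle fibres and epithelia, restricted families such as Nova, Rbm20 and Esrp are added to this general machinery and set the exon choices that mark those tissues. Many of these genes also control their own level, by an exon or intron whose presence or absence sends the transcript to nonsense-mediated decay.

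The gene rows summed to 110172148 and 103363136 estimated counts in replicates 1 and 2, of which the 41 members took 0.722% and 0.692%. Levels are given in TPM, the share of transcripts scaled to a fixed total, which corrects for length and depth and so can be set side by side between genes. Limb mesenchyme markers such as Prrx1 were present, all 7 of 7 at 1 TPM or more in both libraries, as were all 8 of 8 skeletal muscle and 7 of 7 epithelial markers. Neuronal markers were lower, 8 of 9 at 1 TPM or more in both libraries with Syt1 at 0.70 and 0.81 TPM, and none of the 5 forebrain and spinal cord markers reached 1 TPM in both. The limb holds axons of nerves whose cell bodies lie outside it, and in bulk tissue fewer cells of a type cannot be told apart from less RNA per cell.

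Of the 41 regulators, 36 (87.8%) reached 1 TPM in both libraries, against 62.8% of protein-coding genes. By class, and without a test, the median of the mean TPM was 1.46 in the neural class, 17.3 in the muscle class and 22.7 in the epithelial class, against 124 in the broad class. For all genes averaging 1 TPM or more the median was 17.5 TPM. In the neural class 9 of 14 reached 1 TPM in both libraries, whereas all 3 muscle, both epithelial and all 22 broad members did. The overlap between classes was small for neural members: 12 of 14 lay under the lowest broad member in both libraries, and Ptbp2 and Khdrbs3 were the 2 that did not. That lowest broad member was Mbnl3 (8.88 and 10.55 TPM), and 56.2% of all protein-coding genes also lay under it in mean TPM. Of muscle members 1 of 3, and of epithelial members 0 of 2, lay under the lowest broad member.

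**Figure D1:**
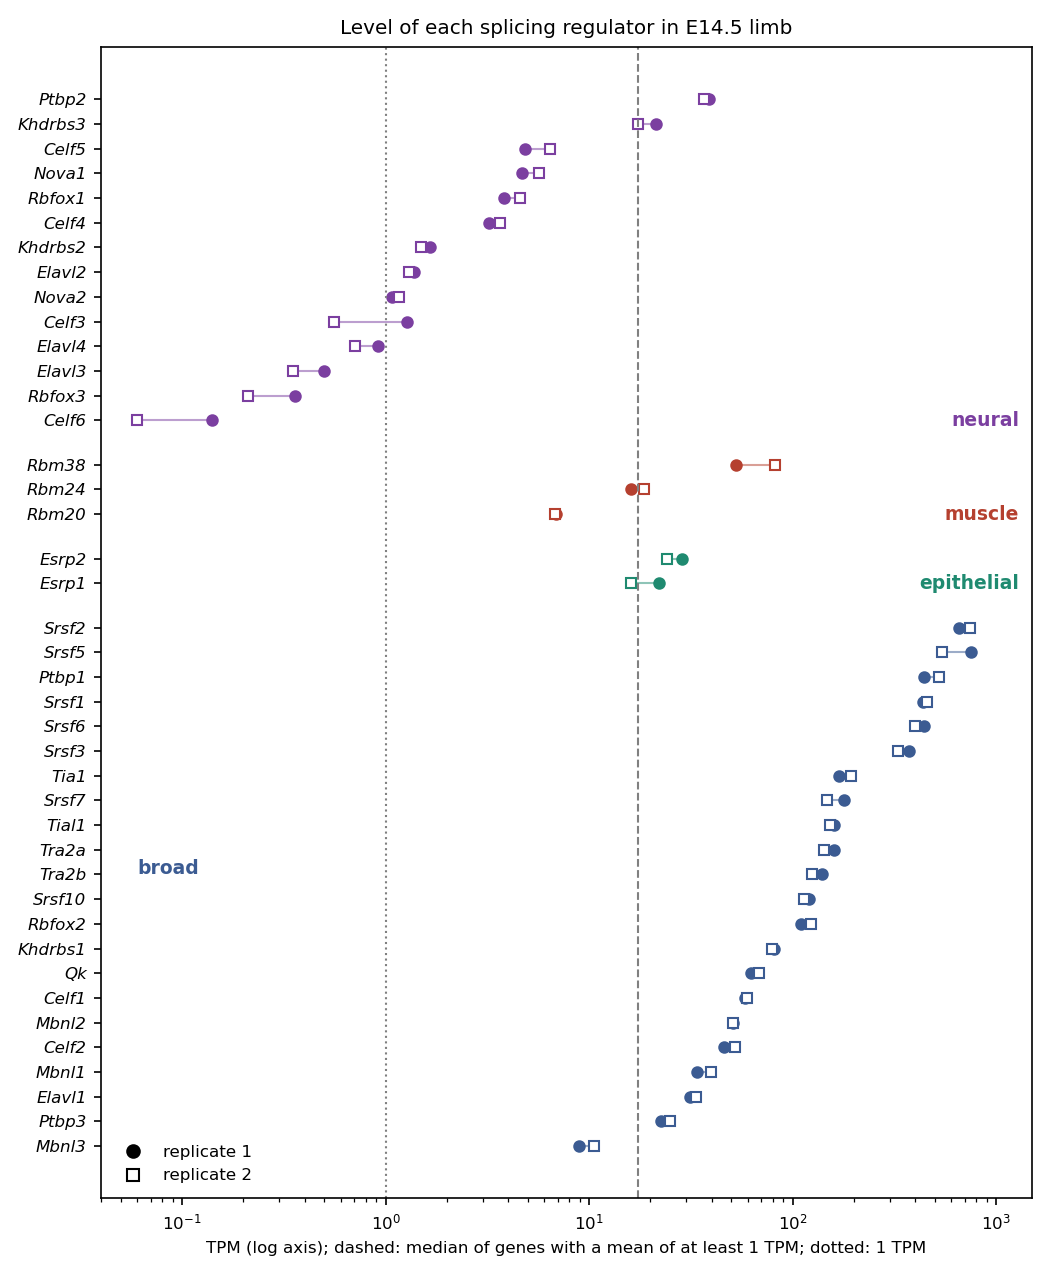
TPM of each of the 41 regulators on a log axis, by class, with replicate 1 as filled circles and replicate 2 as open squares. The dashed line is the median of genes averaging 1 TPM or more (17.5), and 12 of 14 neural members lie left of every broad member. By mean TPM, 56.2% of protein-coding genes (not drawn) also lie under the lowest broad member, Mbnl3.

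Each level was then set against the median gene of its library, in a limma fit of log2(TPM + 1) over 15060 genes. The error was the spread between the libraries, moderated over genes (7.08 moderated degrees of freedom), so an SE is not the gene's own spread alone. Of the 41 regulators, 24 (58.5%) were called above the median gene, against 43.1% of all tested genes, and 14 (34.1%) below it, against 43.5%, at a Benjamini-Hochberg adjusted p under 0.05. The fit includes 5 members under a mean of 1 TPM, which the filter would have left out; of the other 36, 24 were above and 9 below. By class the calls were 1 above and 12 below among 14 neural members, 1 and 1 among 3 muscle members, 1 and 0 among 2 epithelial members, and 21 and 1 among 22 broad members. Khdrbs3, Esrp1 and Rbm24 were called in neither direction. Without the filter on low values the median gene sits near 0 TPM, and all 41 members were then called above it, so the calls below apply to the median of expressed genes.

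Neural regulators come first. Ptbp2, a repressor that takes over from Ptbp1 as neurons differentiate, had 38.99 TPM in replicate 1 and 36.87 TPM in replicate 2. It was the highest neural member and stood 1.09 ± 0.14 (SE) above the median gene on the log2(TPM + 1) scale (limma, Benjamini-Hochberg adjusted p = 0.000144). Khdrbs3, an RNA-binding protein of the Sam68 family that regulates neurexin exons in brain, had 21.25 and 17.31 TPM and was not called apart from the median gene (difference 0.15 ± 0.14, limma, Benjamini-Hochberg adjusted p = 0.333). These 2 neural members thus lay within the range of the broad class.

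A middle group of 4 neural genes had between 3 and 7 TPM. Celf5, a brain-enriched relative of Celf1, had 4.86 and 6.45 TPM. Nova1, which sets exon choice in neurons of the brainstem and spinal cord, had 4.68 and 5.69 TPM. Rbfox1, which acts in neurons, heart and skeletal muscle, had 3.81 and 4.57 TPM. Celf4, a further member of the Celf family known from neurons, had 3.22 and 3.63 TPM. All 4 were called below the median gene, with log2 differences from -1.46 (Celf5) to -2.04 (Celf4). The ranges of Celf5 and Nova1 over the libraries overlapped, while Rbfox1 lay below both in each library and Celf4 below Rbfox1. The place of Celf5 in this order depends on its retained-intron transcripts, described below. Without transcripts of types that give no full protein, Celf5 had 2.88 and 3.11 TPM. That is below Celf4 (3.21 and 3.63 TPM) and Rbfox1 (3.81 and 4.58 TPM) on the same basis.

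The other 8 neural genes were near or under 1 TPM. Khdrbs2, a brain-enriched member of the Sam68 family, had 1.66 and 1.49 TPM, Elavl2 1.38 and 1.30 TPM, and Nova2 1.07 and 1.16 TPM. Celf3 was at 1.27 and 0.56 TPM, on either side of that threshold. Elavl4 had 0.92 and 0.71 TPM and Elavl3 0.50 and 0.35 TPM, and both, with Elavl2, are neuronal RNA-stability and splicing factors. Rbfox3, the antigen known as NeuN that marks mature neurons, had 0.36 and 0.21 TPM. Celf6 was lowest, at 0.14 and 0.06 TPM from 23 and 8 counts. Of the 14 neural members 9 had the lower value in replicate 2, among them all 5 under a mean of 1 TPM (Celf3, Elavl4, Elavl3, Rbfox3 and Celf6), and Nova1, Celf5, Rbfox1, Celf4 and Nova2 had the higher value there. The summed level of the 9 neuronal markers was 72.4 TPM in replicate 2 and 97.3 TPM in replicate 1, with 7 of 9 lower in replicate 2 and most of the gap from Gap43 (23.50 and 39.92 TPM). The summed Schwann cell markers were higher in replicate 2, 66.0 TPM against 57.0 TPM. The part of nerve content in the members' values was not tested.

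Among muscle regulators, Rbm38 had 52.95 and 81.52 TPM, Rbm24 16.09 and 18.54 TPM, and Rbm20 6.88 and 6.78 TPM. Rbm24 promotes muscle-specific exons and is needed for sarcomere formation, Rbm38 is its close relative and is also known from erythroid cells, and Rbm20 controls the splicing of titin. The 3 genes did not overlap in either library. Rbm38 was 1.87 ± 0.19 (SE) above the median gene (limma, Benjamini-Hochberg adjusted p = 3.99e-05), Rbm24 was not called apart from it (0.0043 ± 0.13, adjusted p = 0.976), and Rbm20 was below it (-1.22 ± 0.12, adjusted p = 4.07e-05). Placing Rbfox1 among muscle genes would lower the median of that class to 12.1 TPM and that of the neural class to 1.34 TPM.

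Both epithelial regulators were expressed near the level of the median gene. Esrp2 had 28.50 and 24.20 TPM and Esrp1 22.08 and 16.13 TPM; together they switch Fgfr2, Cd44 and other transcripts to their epithelial forms. Esrp2 was 0.58 ± 0.14 (SE) above the median gene (limma, Benjamini-Hochberg adjusted p = 0.00467), and Esrp1 was not called apart from it (0.13 ± 0.15, adjusted p = 0.443). Both were lower in replicate 2, where the summed level of the 7 epithelial markers was 719 TPM against 986 TPM in replicate 1. The part of epithelial content in this was not tested.

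In the broad class, the 9 SR and Tra2 proteins were all at 100 TPM or more in both libraries, with a median of 351 TPM. Srsf2, an exonic activator, was the highest of the 41 by mean, with 657.81 and 743.57 TPM. Srsf5 had 753.21 and 539.46 TPM, Srsf1 435.39 and 455.37 TPM, Srsf6 444.15 and 399.71 TPM, and Srsf3 372.24 and 330.10 TPM. Their order changed between libraries: Srsf5 was above Srsf2 in replicate 1 and below it in replicate 2. Srsf7 had 179.17 and 147.77 TPM, Tra2a 159.82 and 142.26 TPM, Tra2b 139.90 and 124.14 TPM, and Srsf10, an SR-related protein that represses splicing when dephosphorylated, 120.29 and 113.54 TPM. Estimated counts of Srsf3, Srsf5, Srsf10 and Tra2b were not whole numbers, the sign of reads shared with other loci, so these 4 levels are less certain.

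The other 13 broad members ranged from 9.7 to 485 TPM in the mean, with a median of 59.1 TPM. Ptbp1, the main repressor of neural exons outside neurons, had 443.49 and 525.53 TPM. Tia1 (169.51 and 194.33 TPM) and Tial1 (160.12 and 152.67 TPM) bind uridine-rich tracts after weak 5′ splice sites. Rbfox2, the broadly expressed Rbfox protein, had 110.27 and 123.46 TPM, and Khdrbs1, also called Sam68, had 81.18 and 78.90 TPM. Qk, the quaking protein, had 62.50 and 68.58 TPM. Celf1 (58.51 and 59.61 TPM), Mbnl2 (51.10 and 50.92 TPM), Celf2 (45.97 and 51.97 TPM) and Mbnl1 (33.71 and 39.68 TPM) followed; Mbnl proteins drive the change from fetal to adult exon choice in muscle, and Celf1 opposes it. Elavl1, also called HuR, had 31.31 and 33.47 TPM, and Ptbp3, which is prominent in blood cells, had 22.47 and 25.01 TPM. Mbnl3, the Mbnl member known from muscle precursors and placenta, had 8.88 and 10.55 TPM and was the only broad member called below the median gene (-0.77 ± 0.13 SE, limma, Benjamini-Hochberg adjusted p = 0.000821).

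Levels of related genes were compared in 28 pairs, with p-values adjusted over the 28; 22 pairs differed and 6 did not pass, and in all 28 the sign was the same in both libraries. The pairs were chosen with earlier results of these data known. The first gene was higher in 3 of the 22 and lower in 19.

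**Figure D2:**
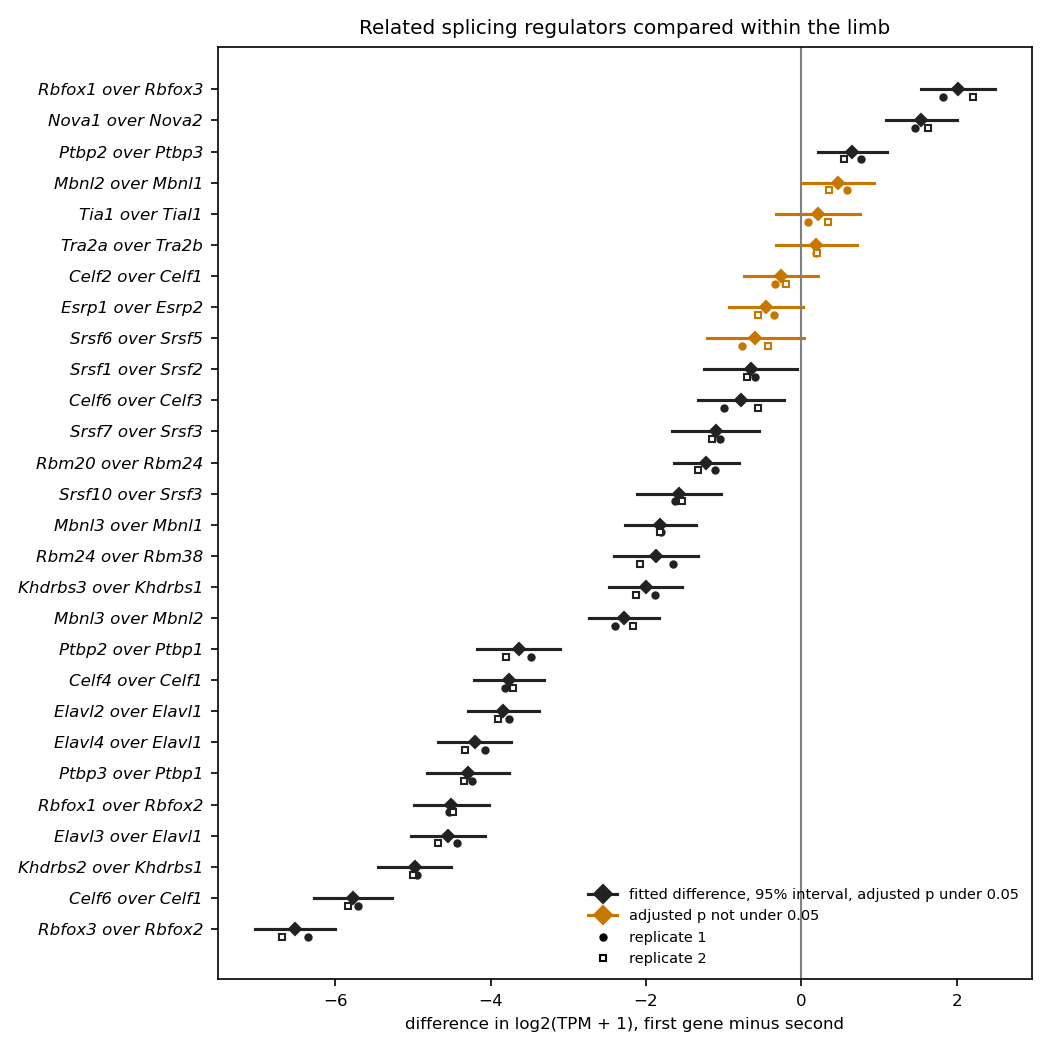
Difference in log2(TPM + 1), first gene minus second, for 28 pairs of related regulators, with the 95% interval of the fit and the value in each library. In 22 pairs the adjusted p is under 0.05 (black), and the 6 others are orange.

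In the 5 families with a broad and a neural member, 1 or 2 broad members held most of the family's summed TPM. Rbfox2 made up 96.4% and 96.3% of the Rbfox total in replicates 1 and 2, against 3.33% and 3.56% for Rbfox1 and 0.315% and 0.164% for Rbfox3. Rbfox1 averaged 4.19 ± 0.54 TPM and Rbfox2 116.9 ± 9.3 TPM (SD, n = 2), a log2(TPM + 1) difference of -4.51 (95% interval -4.99 to -4.03; limma, Benjamini-Hochberg adjusted p = 4.80e-07). Rbfox3 was lower still, at -6.52 against Rbfox2 (95% interval -7.04 to -6.00; limma, Benjamini-Hochberg adjusted p = 2.71e-07). Rbfox1 was above Rbfox3 by 2.01 (95% interval 1.53 to 2.49; limma, Benjamini-Hochberg adjusted p = 4.47e-05). The pseudocount of 1 understates differences of low genes: with 0.1 these were -8.27 for Rbfox3 over Rbfox2 and 3.50 for Rbfox1 over Rbfox3, and the ratio of mean TPM in the last pair was 14.7.

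Elavl1 held 91.8% and 93.4% of the Elavl total. The neuronal Elavl2, Elavl4 and Elavl3 differed from it by -3.83, -4.20 and -4.55 on the log2(TPM + 1) scale (SE 0.19 to 0.20; limma, Benjamini-Hochberg adjusted p between 4.80e-07 and 6.95e-07). In the Sam68 family Khdrbs1 held 77.99% and 80.8%, with differences from it of -2.01 ± 0.20 for Khdrbs3 and -4.98 ± 0.20 for Khdrbs2 (SE), both called. Khdrbs3 itself held 20.4% and 17.7% of the total, and Khdrbs2 1.59% and 1.53%. In the Celf family Celf1 (51.3% and 48.7%) and Celf2 (40.3% and 42.5%) together took most of the total. Both Celf4 (-3.76 ± 0.19) and Celf6 (-5.77 ± 0.21, SE) were below Celf1. Celf2 against Celf1 did not pass (-0.27, 95% interval -0.74 to 0.21; limma, Benjamini-Hochberg adjusted p = 0.243), but did on counts not scaled by length (-0.71, adjusted p = 0.00152). On those counts limma pooled the spread over all genes, which makes p-values small.

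Ptbp1 held 87.8% and 89.5% of the Ptbp total. Ptbp2 averaged 37.9 ± 1.5 TPM and Ptbp1 484.5 ± 58.0 TPM (SD, n = 2), a log2(TPM + 1) difference of -3.64 (95% interval -4.17 to -3.10; limma, Benjamini-Hochberg adjusted p = 2.24e-06). Ptbp1 is known to repress an exon of Ptbp2 and so its productive transcript, and Ptbp2 has a single transcript in these tables, so exon choice within Ptbp2 could not be read. Ptbp3 was also below Ptbp1 (-4.29 ± 0.23, SE). Ptbp2 was above Ptbp3 by 0.66 (95% interval 0.21 to 1.10; limma, Benjamini-Hochberg adjusted p = 0.0147). On counts not scaled by length the sign of Ptbp2 over Ptbp3 turned (-0.24, adjusted p = 0.274). The effective length was 3165 and 3138 nucleotides for Ptbp2 and 6046 and 5878 nucleotides for Ptbp3 in replicates 1 and 2.

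Pairs within a restricted class come next. Esrp1 averaged 19.1 ± 4.2 TPM and Esrp2 26.4 ± 3.0 TPM (SD, n = 2), and their difference did not pass (-0.46, 95% interval -0.93 to 0.02; limma, Benjamini-Hochberg adjusted p = 0.0658). Nova1 was above Nova2 by 1.54 (95% interval 1.09 to 2.00; limma, Benjamini-Hochberg adjusted p = 0.000147). Rbm24 was below Rbm38 (-1.87 ± 0.23) and Rbm20 below Rbm24 (-1.22 ± 0.18, SE). Celf6 was below Celf3 (-0.78 ± 0.23, SE; limma, Benjamini-Hochberg adjusted p = 0.0165), both near the lower end of detection. With a pseudocount of 0.1 in place of 1 the difference was larger (-2.28) and no longer passed (limma, Benjamini-Hochberg adjusted p = 0.0596). Counts not scaled by length ended the call on Rbm24 against Rbm38 (-0.30, adjusted p = 0.178).

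Among broad members, Mbnl3 was below Mbnl1 (-1.81 ± 0.19) and below Mbnl2 (-2.28 ± 0.19, SE), and Mbnl2 over Mbnl1 did not pass (0.47, 95% interval -0.0022 to 0.94; limma, Benjamini-Hochberg adjusted p = 0.0619). Mbnl2 over Mbnl1 passed without the filter (0.47, limma, Benjamini-Hochberg adjusted p = 0.0328) and on counts not scaled by length (0.71, adjusted p = 0.000914). It also passed without transcripts of a non-coding type, a setting added after the data were seen (0.94, adjusted p = 0.000196). In these settings, here and in the pairs below, limma pooled the spread over genes more than in the main fit, which can make p-values smaller. The moderated degrees of freedom were 43346, 15060 and 29.0, against 7.08. Of the SR pairs, Srsf7 was below Srsf3 (-1.10 ± 0.24), Srsf10 below Srsf3 (-1.58 ± 0.23) and Srsf1 below Srsf2 (-0.65 ± 0.25, SE). The last call, at a limma, Benjamini-Hochberg adjusted p of 0.0473, was lost without the filter (-0.65, adjusted p = 0.0676) and on counts not scaled by length (-0.54, adjusted p = 0.0570). Without non-coding transcripts it was larger (-1.40, limma, Benjamini-Hochberg adjusted p = 4.64e-05). Tia1 over Tial1 (0.21, 95% interval -0.32 to 0.75), Tra2a over Tra2b (0.19, -0.33 to 0.72) and Srsf6 over Srsf5 (-0.60, -1.22 to 0.03) did not pass. Tia1 over Tial1 passed on counts not scaled by length (0.65, limma, Benjamini-Hochberg adjusted p = 0.00569), and Srsf6 over Srsf5 without non-coding transcripts (-0.88, adjusted p = 0.00150). A pair that did not pass is not thereby shown to be equal.

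Transcripts of the 41 genes were read next, since regulators of splicing are themselves spliced in several ways. The tables list 301 transcripts of the members, and 271 have the same length in the later annotation that gives their type; the others are called unclassified. A single transcript is listed for 9 members (among them Ptbp2, Nova1, Rbm24 and Srsf7). The remaining comparison is over 29 members averaging 1 TPM or more and 2 or more listed transcripts. Types that give no full protein were summed as a non-coding share: transcripts marked for nonsense-mediated decay, retained introns and processed transcripts. The estimates divide reads among overlapping transcripts, so a short fragment within a gene, such as a retained intron, can take a large share of TPM on few reads.

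The non-coding share was at least 20% in both libraries for 11 of the 29 members (37.9%), against 28.0% of 9951 protein-coding genes chosen the same way. Unclassified transcripts count as coding here. Among genes with no TPM in unclassified transcripts in either library, the share was reached by 9 of 18 members, against 31.1% of 7530 genes. The median share was 14.6% over the 29 members and 7.55% over the 9951 genes, and the members list more transcripts (a median of 7 against 5). Of the 11, 9 are broad (Srsf6, Srsf5, Ptbp1, Tia1, Srsf1, Khdrbs1, Tial1, Mbnl1 and Srsf10), 1 is neural (Celf5) and 1 epithelial (Esrp2). In 4 (Srsf6, Srsf5, Ptbp1 and Tia1) the share was above 50% in both libraries, which held for 8.17% of all such genes.

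**Figure D3:**
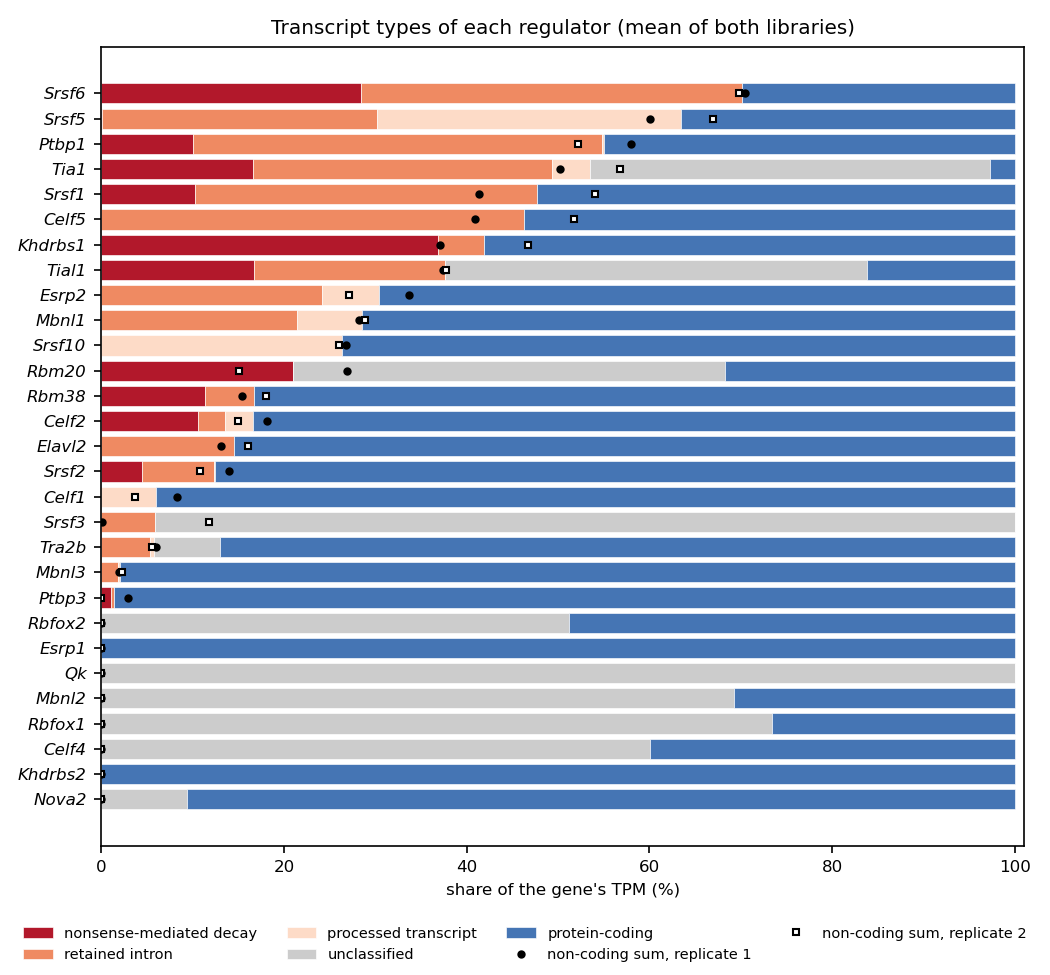
Share of each gene's TPM by transcript type, as the mean of both libraries, for 29 regulators in order of the non-coding share, with that share in each library as a circle or a square. Srsf6 (70.2%), Srsf5 (63.5%), Ptbp1 (55.1%) and Tia1 (53.5%) lead.

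Srsf6 had 70.5% and 69.8% of its TPM in non-coding types. The retained-intron transcript Srsf6-204 took 42.97% and 40.50%, the protein-coding Srsf6-203 29.15% and 29.33%, and the decay transcript Srsf6-201 27.53% and 29.31%. The shares thus lay within 3 percentage points between libraries for each of these. Srsf5 had 60.1% and 67.0% in non-coding types, among them the retained-intron Srsf5-212 (27.98% and 29.31%) and the short Srsf5-211 (16.74% and 27.98%). The coding Srsf5-201 took 28.48% and 24.83% of the gene's TPM. The leading transcript of Srsf5 differed between the libraries. In Srsf2 the share was 14.0% and 10.8%, and the coding Srsf2-201 led with 83.70% and 84.31%.

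Ptbp1 had 57.9% and 52.2%, most of it the retained-intron fragment Ptbp1-214 of 744 nucleotides (31.82% and 31.32% of the gene's TPM). Without non-coding types Ptbp1 had 186.49 and 251.21 TPM and was still the highest of its family, at 75.4% and 80.2% of the Ptbp total. In Srsf1 the retained-intron Srsf1-203 led at 24.98% and 36.59%, with the coding Srsf1-201 at 24.51% and 22.53%. Khdrbs1 had 31.82% and 41.81% in a decay transcript, Khdrbs1-202, beside 62.86% and 53.28% in the coding Khdrbs1-201. Tia1 and Tial1 also had decay transcripts, 18.55% and 14.61% of Tia1 and 19.15% and 14.31% of Tial1. Taking non-coding types away lowered the median of the broad class to 91.8 TPM and that of the neural class to 1.36 TPM, and the order of the classes was the same.

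Among restricted regulators the leading transcripts were mostly coding. Esrp1 was 100% coding in both libraries, divided among Esrp1-203 (38.88% and 39.41%), Esrp1-204 (34.19% and 30.36%) and Esrp1-201 (21.47% and 18.68%). Esrp2 had 33.7% and 27.1% in non-coding types, and Esrp2-201 led at 64.39% and 71.46%. On coding and unclassified transcripts alone Esrp1 over Esrp2 turned to 0.05 (limma, Benjamini-Hochberg adjusted p = 0.840), so these values give no order of the 2 genes. Celf5 had 40.9% and 51.8% in retained introns, mainly the 605-nucleotide Celf5-207 (30.86% and 49.00%). In Rbm20 the decay transcript took 26.89% and 15.05%, and a coding fragment of 465 nucleotides 27.50% and 35.99%. Rbm38 was led by Rbm38-201 (48.62% and 38.78%) and the 440-nucleotide fragment Rbm38-208 (35.08% and 30.12%).

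The leading transcript was the same in both libraries for 22 of 29 members (75.9%), against 88.1% of the same protein-coding genes. The 7 exceptions were Celf1, Elavl2, Srsf5, Celf4, Mbnl1, Celf5 and Mbnl3. In Celf4 the leader of replicate 1, Celf4-201, took 76.61% and 43.43%, and Celf4-202 took 23.39% and 56.57%, from 905 and 949 counts of the gene. In Mbnl1 the coding Mbnl1-214 took 37.34% and 21.37% and Mbnl1-201 19.86% and 22.88%. In Srsf5 the leading pair was nearly tied, with shares given above.

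Alternative exons were then read from the transcripts that hold an exon and those that join its neighbours without it, with the summed TPM of each side. Of 37 such exons and contexts with at least 5 TPM in both libraries, in 13 genes, 18 lay between 10% and 90% inclusion in both, and 31 lay within 10 percentage points between the libraries. A value of this kind is an estimate from transcript TPM, not a count of junction reads. It leaves out unclassified transcripts and those with other splice sites next to the exon, so it is not a share of the whole gene. The exons below were chosen after their values were seen, and only some of them as ones with known roles. Their sequences are from GENCODE M21 transcripts on GRCm38, 5′ to 3′ on the strand of the gene.

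**Figure D4:**
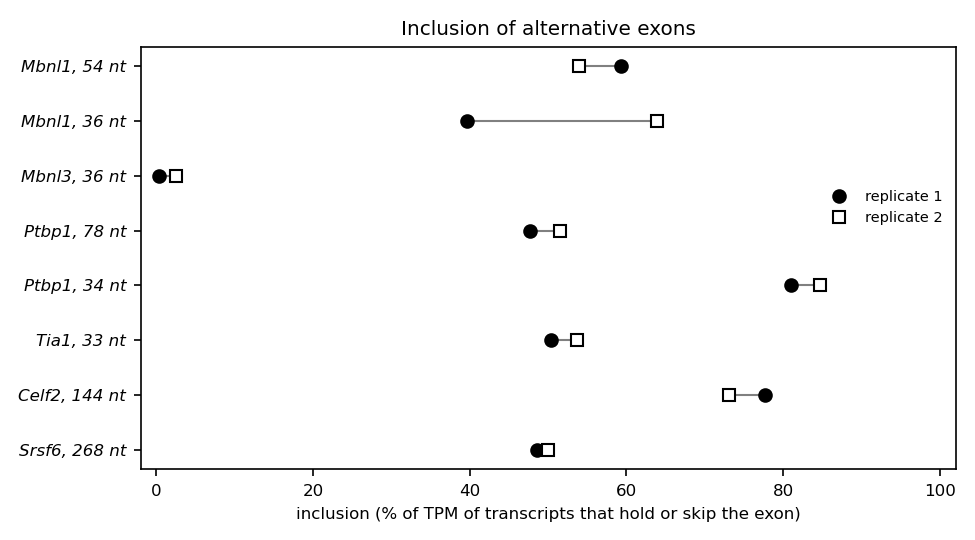
Inclusion of 8 alternative exons, with replicate 1 as filled circles and replicate 2 as open squares. It is the percent of the summed TPM of classified transcripts that hold or skip the exon between the same splice sites. The Mbnl1 exon of 36 nucleotides differs most between the libraries (39.7% and 63.9%), and the same-sized exon of Mbnl3 is near 0.

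Mbnl1 carries a 54-nucleotide exon that holds part of its nuclear localisation signal, so that the protein with it is mainly nuclear, and Mbnl proteins are known to repress it. It lies at chr3:60614683-60614736 on the plus strand and was included at 59.25% and 53.96% (mean 56.6% ± 3.7 SD, n = 2). Transcripts with the exon summed to 14.25 and 15.05 TPM, and those without it to 9.80 and 12.84 TPM, so each library held both forms. Its length is a multiple of 3, so either form keeps the reading frame.
Mbnl1 exon of 54 nucleotides: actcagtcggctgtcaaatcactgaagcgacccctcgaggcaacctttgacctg

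A second Mbnl1 exon, of 36 nucleotides at chr3:60621423-60621458, was included at 39.7% and 63.9%. The libraries differed by more than for any other exon shown. Mbnl3 has an exon of the same length at chrX:51126126-51126161 on the minus strand, included at 0.34% and 2.51%. The 2 exons share 26 of 36 bases without gaps, so they are shown together with the 10 differing bases in capitals. Related in sequence, the exons stood apart in inclusion in both libraries.
Mbnl1 exon of 36 nucleotides: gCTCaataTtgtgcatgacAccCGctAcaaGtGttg
Mbnl3 exon of 36 nucleotides: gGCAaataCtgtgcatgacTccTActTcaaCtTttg

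Ptbp1 has 2 exons of known effect. The 78-nucleotide exon at chr10:79860117-79860194 lengthens a linker between RNA-binding domains, and the form without it represses less well. It was included at 47.8% and 51.6% (mean 49.7% ± 2.7 SD, n = 2). The 34-nucleotide exon at chr10:79862014-79862047, whose loss shifts the frame and leads to decay, is skipped under the action of Ptbp1 itself. It was included at 81.0% and 84.8%, and its skipped transcripts carried 47.87 and 48.59 TPM, all of the decay type. Both are on the plus strand.
Ptbp1 exon of 78 nucleotides: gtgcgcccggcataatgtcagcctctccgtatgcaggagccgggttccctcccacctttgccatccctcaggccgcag
Ptbp1 exon of 34 nucleotides: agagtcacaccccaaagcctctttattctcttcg

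Tia1 has a 33-nucleotide exon at chr6:86419101-86419133 on the plus strand, which was included at 50.3% and 53.7%. Transcripts that hold it are of decay and coding types, and those that skip it also include retained introns and processed transcripts. Coding transcripts together made up 3.14% and 2.26% of Tia1 TPM, so this inclusion is mostly a ratio among non-coding types. The unclassified transcripts, 46.69% and 40.95% of Tia1 TPM with the leading Tia1-202, are in neither sum. Celf2 has a 144-nucleotide exon at chr2:6549832-6549975 on the minus strand, included at 77.8% and 73.0%. Both values lay within 5 percentage points between the libraries, and both lengths are multiples of 3.
Tia1 exon of 33 nucleotides: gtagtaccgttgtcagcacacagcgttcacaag
Celf2 exon of 144 nucleotides: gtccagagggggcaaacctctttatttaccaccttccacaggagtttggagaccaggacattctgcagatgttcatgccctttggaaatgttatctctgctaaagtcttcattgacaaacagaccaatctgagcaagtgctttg

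SR genes carry so-called poison exons, which bring in an early stop. That of Srsf6 is 268 nucleotides long at chr2:162932815-162933082 on the plus strand. It was included at 48.57% and 49.99%, that is with 122.28 and 117.17 TPM of the decay transcript Srsf6-201 beside 129.48 and 117.23 TPM of the coding Srsf6-203. The decay form was thus about as abundant as the coding form, per length. The start of the exon up to its stop codon, chr2:162932815-162932966, is shown with the stop in capitals. A 187-nucleotide exon of Srsf1, absent from a decay transcript, was included at 61.0% and 59.1%. This sets only 1 coding transcript (88.49 and 48.32 TPM) against 1 decay transcript (56.51 and 33.49 TPM). Srsf1-203 and Srsf1-201, the leading transcripts, are in neither sum, and decay types made up 13.19% and 7.4% of Srsf1 TPM. The decay-linked 377-nucleotide exon of Tial1 was included at 33.4% and 40.0%. A shorter form of that Tial1 exon, of 68 nucleotides and also of a decay transcript, was at 39.3% and 19.7%, so the libraries differed. The unclassified transcripts, 45.97% and 46.49% of Tial1 TPM with the leading Tial1-208, are in none of these sums. The value of each form also leaves out the other form, so neither is a share of all Tial1 transcripts. A 104-nucleotide exon of Srsf2, held by a decay and a coding transcript, was at 3.75% and 8.61%.
Srsf6 poison exon to its stop: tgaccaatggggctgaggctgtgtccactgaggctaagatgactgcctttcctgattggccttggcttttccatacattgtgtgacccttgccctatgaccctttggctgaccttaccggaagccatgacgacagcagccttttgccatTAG

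Between the libraries the gene levels were close. Of 36 members averaging 1 TPM or more, 1 (2.78%) was apart by 1.5-fold or more, against 11.3% of all genes at that level. The member was Rbm38, at 1.54-fold with the higher value in replicate 2, where the summed skeletal muscle markers were lower (2619 TPM, against 3142 TPM in replicate 1) and the summed erythroid markers were 20909 TPM against 20266 TPM. With TMM-scaled counts Rbm38 was under the threshold (log2 ratio 0.46, against 0.62 in TPM). The median member was 1.13-fold apart, against 1.17-fold for all such genes. The effective length used for TPM differed between libraries by over 1.2-fold in Celf5 and Rbfox1, which adds to the error of these 2 levels.

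Other genes of the splicing machinery were read from lists. All 13 core splicing factors and all 21 hnRNP proteins were called above the median gene by the same limma fit, with medians of 203 and 256 TPM. Hnrnpa1 (884.66 and 607.08 TPM), Hnrnpk and Hnrnph1 led the hnRNP list, and Snrpb (351.17 and 406.42 TPM), Prpf19 and Snrpa the core list. Of 7 kinases of SR proteins 6 were above and 0 below, led by Clk1 with 316.98 and 240.69 TPM. Of 17 other regulators 14 were above and 1 below, and the 1 below was Rbm47 (1.53 and 1.65 TPM), named after its values were seen. Of 9 other SR proteins and cofactors 6 were above and 1 below, Srsf12 (11.05 and 8.93 TPM), also named after its values were seen. Srrm3 (0.45 and 0.43 TPM) and Srrm4 (0.37 and 0.26 TPM), which act on neural microexons, were under 1 TPM in both libraries and so were not in the fit. In level they lay among the lowest of the neural regulators described above.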

How the data were processed

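Limb RNA of 1 group with 2 libraries was read as stranded paired ends of 101 nucleotides. The authors deposited, per the file headers, an expected count, TPM, posterior mean TPM and effective length for each gene and transcript, and each transcript's share of its gene in percent, made on mm10 with GENCODE M4. The software was not given in the sources used here. Members were joined by stable gene identifier to GENCODE M21 (GRCm38), which also gave transcript types where lengths in both releases were equal; 884 genes had no match. Rows of spike-ins, phiX and tRNA (3.73% and 4.30% of all counts) were left out.

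Levels were log2(TPM + 1) minus the library median, fitted with limma 3.58.1 (intercept only, eBayes with trend, two-sided) over genes averaging 1 TPM or more, plus the 5 members below that. Adjusted p-values are Benjamini-Hochberg, at 0.05. Pair differences used the summed moderated variances of both genes, as if independent, with p-values adjusted over 28 pairs. The fit was tested on simulated data. TMM factors came from edgeR 4.0.16 and size factors from DESeq2 1.42.0, and were used for alternatives only. An exon's inclusion is the summed TPM of transcripts holding it over that of transcripts holding or skipping it. All members are named; other genes are named if among the 3 highest of their list or under 1 TPM in both libraries. Transcripts are named if leading or at a mean share of 20% or more. Members, classes, lists and pairs were chosen with earlier results of these data known. Alternatives changed the pseudocount, filter, TPM estimate, scaling, threshold or transcript types, or left out a library.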

Additional observations from a re-analysis of the deposited data

How the results depend on the processing

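With a pseudocount of 0.1, posterior mean TPM, counts not scaled by length, or without non-coding transcripts, 24 to 26 members were above the median gene and 14 below it, and 21 to 24 of 28 pairs differed. Without the filter on low values 41 members were above and 0 below, by limma with Benjamini-Hochberg adjustment, and all 41 also had an unadjusted p under 0.05 above it; the median gene is then near 0 TPM. Pair differences that changed sign on counts not scaled by length were Ptbp2 over Ptbp3 (-0.24), Esrp1 over Esrp2 (0.033), Tra2a over Tra2b (-0.022) and Srsf6 over Srsf5 (0.26), and without non-coding transcripts Esrp1 over Esrp2 (0.047) and Tia1 over Tial1 (-0.21). The alternatives' construction, which leaves out length or some transcripts, is the only change made; the cause was not tested further. Members 1.5-fold apart between libraries numbered 1 in TPM, 0 with TMM-scaled counts, 0 with DESeq2 size factors, and 4 without the filter. At least 1 TPM in both libraries was reached by 29 members at 5 TPM and 38 at 0.5 TPM, and by 36 to 37 in 1 library alone. The non-coding share held for 11 to 12 members in 1 library alone. Each of the 28 pairs kept its sign in either library alone. With 1 library left there is no residual degree of freedom, so level calls and pair tests could not be refitted, and the leading transcript could not be compared. Samples could not be paired between groups because there is only 1 group. Both genes of each pair were measured in the same 2 libraries, but the pair intervals do not use this. They sum the variances of both genes and so do not measure the spread of the difference within libraries. Without the filter and on counts not scaled by length, limma pooled the spread over all genes, which makes p-values there small. Without non-coding transcripts limma also pooled more than in the main fit (29.0 moderated degrees of freedom against 7.08). The 2 libraries limit the precision, and low members such as Celf6 (23 and 8 counts) are limited by depth.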
